A study of Mus musculus with 16 samples.

Results

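The voltage-gated and potassium channel genes of the mouse were described here in cultured oligodendrocyte precursor cells (OPCs). Members were all protein-coding genes whose symbol begins with Kcn, Scn, Cacna, Cacnb, Cacng or Hcn (the pacemaker channels alone) or is Nalcn, which gave 139 of the 21899 protein-coding genes in the files. The rule reads symbols alone. The genes fall into 13 families. Of the 139 genes, 104 had a mean of at least 1 CPM (read counts scaled to a common library size) in at least 1 group, 86 of them in every group, and these 104 carry the comparisons below. All 104 passed the low-count filter of the test, and the remaining 35, of which 17 passed it, stayed under 1 CPM in every group.

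The cells were OPCs derived from neural stem cells of mice on a C57BL6J/129svEmx mixed background, grown from oligospheres (floating clusters of oligodendrocyte lineage cells) and taken on the fourth day of monolayer culture. Poly(A)-selected, strand-marking RNA-seq libraries were made from 16 samples in 4 groups of 4, and reads were deposited as counts per gene. The WT groups are labelled RXRg+/+ and the RXRgKO groups RXRg-/-, and 1 group of each label received T3 (triiodothyronine, the active thyroid hormone) for 24 h while the other was untreated. All 16 samples share the mixed background and the culture protocol. Whether the 4 libraries of a group are 4 cultures, 4 animals or repeats of one is not in the labels, and the p-values here cover the spread between libraries and nothing wider. Rxrg encodes the gamma retinoid X receptor, a nuclear receptor that pairs with others, among them the thyroid hormone receptors.

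Ion channels set how a cell responds to voltage and to its surroundings. Potassium channels carry the outward or resting current, sodium and calcium channels admit inward current, and auxiliary subunits set the place, number and timing of the pore-forming subunits. OPCs are known for sodium currents, A-type and delayed rectifier potassium currents and calcium channels, and for losing part of this set as they mature, when inwardly rectifying potassium channels dominate. Thyroid hormone is known as a driver of oligodendrocyte maturation.

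Rxrg, the gene named by the label, went against it. Its level was 1.1 to 1.79 CPM in the untreated WT-labelled libraries and 3.77 to 4.83 CPM in the untreated RXRgKO-labelled ones, and 0.371 to 0.960 CPM against 4.27 to 5.46 CPM with T3. Counts per gene cannot show which exons were read, and the deleted part of the gene is not given in the sources used here. Every direction below is therefore between libraries labelled WT and libraries labelled RXRgKO. Depth was 18262279 to 42588442 counts in genes per library. Libraries of a group fell into sets that differed more between than within them: the chi-square per gene was 1.5 to 2.12 within sets and 4.94 to 9.62 between them. Number 1 stood alone in both WT-labelled groups. The RXRgKO-labelled libraries split into those with 1.45 to 4.14 CPM of Xist, the RNA of the inactive X chromosome (untreated 1 and 3, T3 1 and 2), called lacking Xist below, and those with 592 to 700 CPM (untreated 2 and 4, T3 3 and 4). Among the 104 channel genes, 17 differed at least 2-fold between WT-labelled library 1 and the mean of the other libraries without T3 and 17 with T3, and 9 and 18 did so between the 2 RXRgKO-labelled sets. Markers of other cells were present: the summed level of 13 neuronal markers was 611 to 865 CPM in the untreated WT-labelled libraries and 761 to 859 CPM in the untreated RXRgKO-labelled ones. In bulk RNA fewer cells of a type and less RNA per cell cannot be told apart.

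The genes that rose with T3 under both labels are introduced here by the sequence upstream of their start, because thyroid hormone receptors are known to bind the half-site AGGTCA, alone or in repeats. The table of RefSeq promoters (GRCm38.p6) holds 102 of the 139 channel genes and 5 of those 6 genes, and has no entry for Kcna1. The window is the sequence before the RefSeq start, leaving out bases in the gene's annotated exons. Capitals mark each copy of the half-site, read on either strand (TGACCT is the reverse strand). Hcn2 is shown because it holds 2 copies, Kcnh1 because it holds 1, and Cacng5 because it has the largest response among genes with an entry, with no copy. Under the RXRgKO label the calls of Hcn2 and Kcnh1 were not stable to leaving out single libraries, as given below.
Hcn2 (chr10:79716384-79716633, plus strand): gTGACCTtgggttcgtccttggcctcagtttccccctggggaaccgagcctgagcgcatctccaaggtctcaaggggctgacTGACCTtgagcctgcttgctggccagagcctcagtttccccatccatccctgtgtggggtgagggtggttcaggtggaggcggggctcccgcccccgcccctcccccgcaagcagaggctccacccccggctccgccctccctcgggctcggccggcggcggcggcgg
Kcnh1 (chr1:192190527-192190773, plus strand): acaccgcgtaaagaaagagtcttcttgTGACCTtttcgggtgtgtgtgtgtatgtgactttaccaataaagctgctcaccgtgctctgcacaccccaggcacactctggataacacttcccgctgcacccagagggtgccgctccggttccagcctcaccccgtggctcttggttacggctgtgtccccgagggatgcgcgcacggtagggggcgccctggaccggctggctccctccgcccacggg
Cacng5 (chr11:107915056-107915305, minus strand): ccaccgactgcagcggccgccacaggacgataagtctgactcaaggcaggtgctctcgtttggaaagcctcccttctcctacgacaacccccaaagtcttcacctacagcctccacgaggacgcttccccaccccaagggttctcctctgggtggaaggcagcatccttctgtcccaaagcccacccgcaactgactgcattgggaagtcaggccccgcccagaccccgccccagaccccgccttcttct
The copies in Hcn2 begin 249 and 168 bases before the RefSeq start and the copy in Kcnh1 begins 223 bases before it. The printed Kcnh1 window has 247 bases, as exon bases at its end were left out, and the distance counts those bases. Neither Cacna2d3 nor Kcna5 has a copy in its window. Of all 32851 windows held there 14.0% contain the half-site, as do 10 of the 138 windows of channel genes (7.25%). The direct repeat of the half-site with a spacer of 4 bases is in 5 of all windows and in 0 of the channel genes' windows. A match is a description of the letters only.

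Levels between genes were compared as CPM per kilobase of merged exon. Kcne1l, an auxiliary subunit of voltage-gated potassium channels also known as Kcne5, had the highest mean over the 4 groups at 25.1, followed by Kcnj10, the main inward rectifier of glia, at 19.4, and Kcnip3, a calcium-binding partner of A-type channels, at 16.5. Kcnd2, an A-type pore subunit, followed at 15.9, and then the AMPA receptor partners Cacng7 at 15.4 and Cacng4 at 15.3. Cacnb3, a calcium channel beta subunit, was at 14.4, Kcna6 at 14.4 and Kcna2 at 13.6, the last 2 being delayed rectifier subunits. The ranges over single libraries overlapped for each pair of neighbours in this order, from 16.8 to 38.8 for Kcne1l down to 5.37 to 25.6 for Kcna2. Neighbours in this order are therefore not separated beyond their spread. The background potassium channel Kcnk2 (10.7), Kcnd3 (9.36) and Kcnmb4 (5.94), a subunit of the large-conductance calcium-activated channel, came next. The T-type Cacna1h, at 5.44, was the highest calcium channel pore, and no sodium channel gene was among the first 15.

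**Figure D1:**
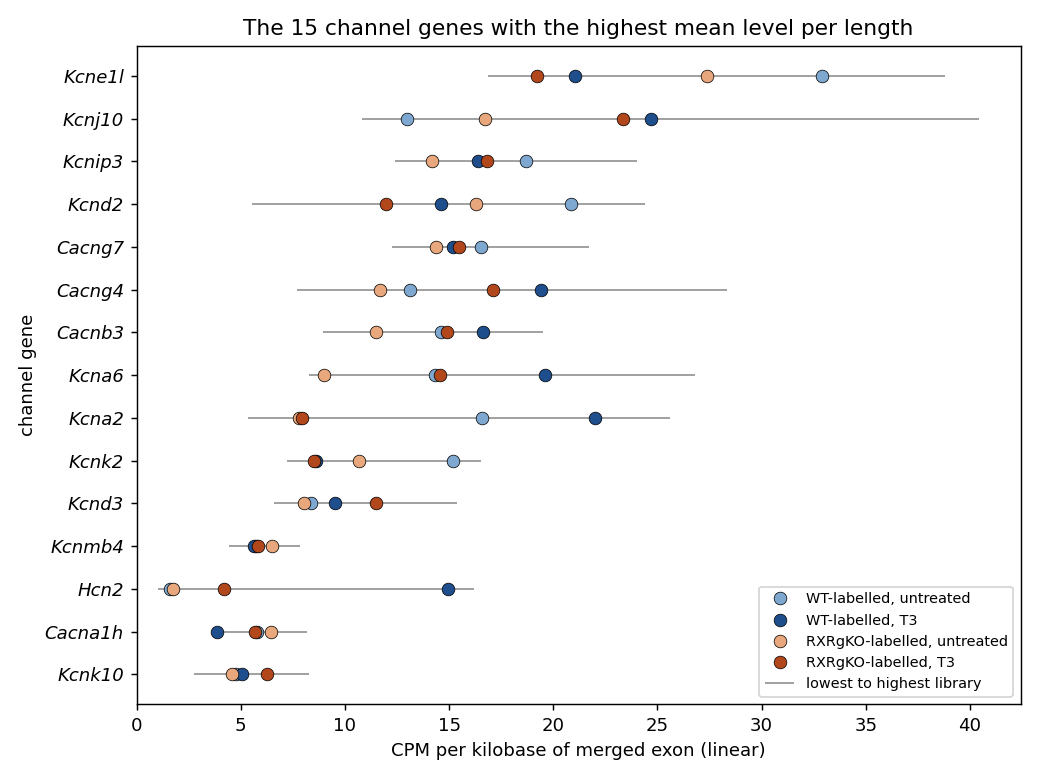
CPM per kilobase of merged exon of the 15 channel genes with the highest mean level, 1 point per group mean (n = 4) and a line from the lowest to the highest of the 16 libraries. The lines of neighbouring genes overlap, Kcna2 is split by label and Hcn2 stands far to the right in the WT-labelled libraries with T3.

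Kcna1, Kcna5, Kcnh1, Cacng5, Cacna2d3 and Hcn2 rose with T3 under both labels, and Cacna1g, Kcnc2 and Kcne1l fell under both. The RXRgKO calls of Hcn2 and Kcnh1 were lost on leaving out any of 14 and 12 single libraries. Those of Cacna1g, Kcnc2 and Kcne1l were lost for any of 5, 9 and 13. With T3, 27 of the 104 genes changed in the WT-labelled libraries (26.0%), against 9.91% of all 15952 genes with at least 1 CPM in a group. Of the 27, 11 rose (background 6.01%) and 16 fell (background 3.91%). In the RXRgKO-labelled libraries 10 changed, against a background of 3.41%, and 6 of them rose (background 2.48%) and 4 fell (background 0.934%). Between the labels, 19 genes differed without T3 (background 13.3%), of which 9 were higher (background 7.03%) and 10 lower (background 6.29%) under the RXRgKO label. With T3, 36 differed (background 17.2%), of which 27 were higher (background 9.1%) and 9 lower (background 8.12%). The count of 10 became 4 without RXRgKO untreated library 4 (background 1.55%). It became 6 without WT untreated library 4, WT T3 library 2 or 3, RXRgKO untreated library 2 or 3 or RXRgKO T3 library 4. The background there was 1.68 to 2.73%. The count of 19 became 10 without WT untreated library 4 (background 10.9%). Without RXRgKO untreated library 2 or 4 it became 11 or 12 (background 11% or 11.3%). The median log2 change over the 104 genes was -0.25 for T3 under the WT label, -0.05 for T3 under the RXRgKO label, 0.16 for the label without T3 and 0.36 for the label with T3, beside 0.01, 0.05, -0.03 and -0.001 over all genes of that level. These comparisons share libraries in pairs, so their values are given side by side and not as separate support. Below 1 CPM, Kcnk6 was also called for T3 under the WT label and Kcnk6, Cacng3 and Kcng1 for the label with T3. They are named after their values were seen.

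**Figure D2:**
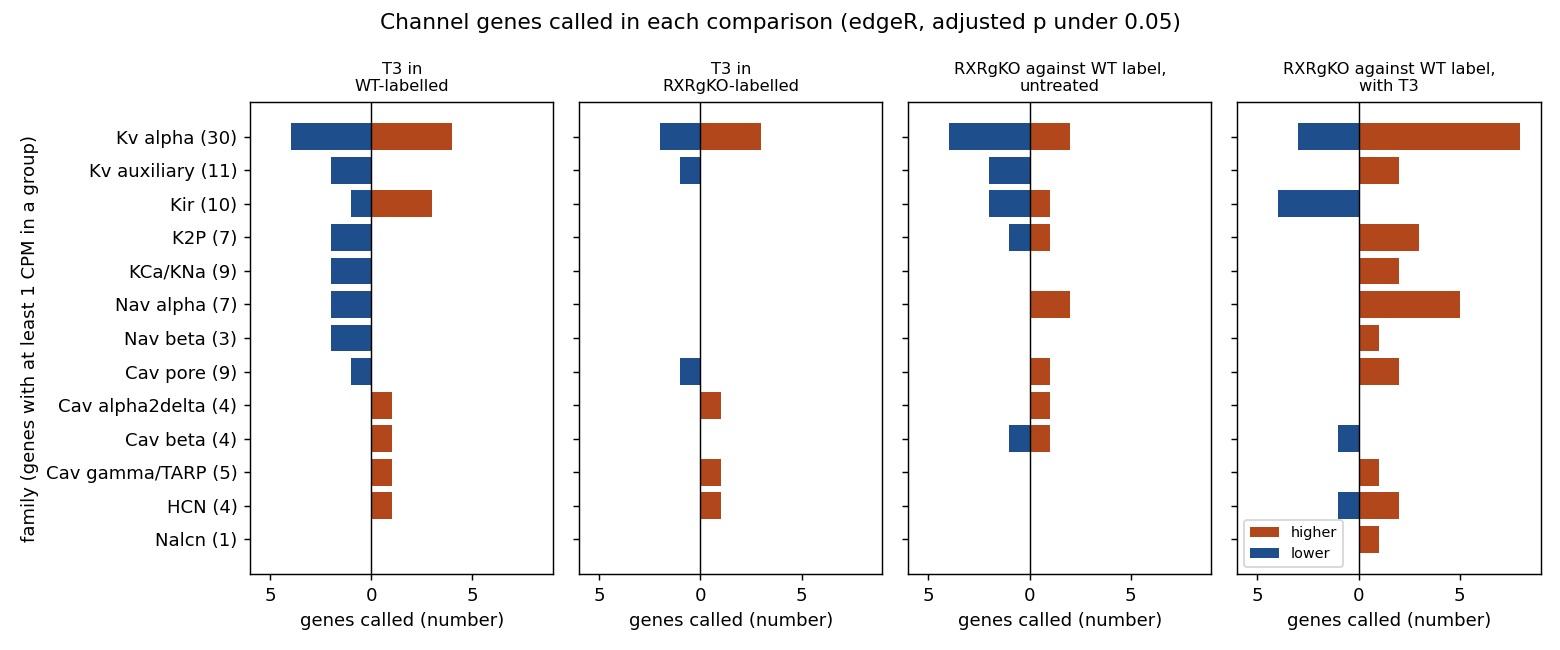
Number of channel genes called higher (right) or lower (left) in each of 4 comparisons, by family, with the number of genes of at least 1 CPM in brackets. T3 under the WT label gave 11 higher (background 6.01%) and 16 lower genes (background 3.91%). In that comparison the sodium channel, K2P and calcium-activated potassium channel calls are on the lower side. Between the labels with T3 the calls of these families are on the higher side.

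The replicate number was taken to pair libraries in the WT-labelled groups, where every same-numbered pair deviated together (correlation above 0.1). Deviations were from the mean of each group, so the distance of library 1 from the others raises their correlations too. Only in the pair of number 1 did each library resemble the other most, so pairs among the other numbers are not shown. With the number as a block, fitted on those 8 libraries, 50 of the 104 genes changed with T3 (background 31.1% under the same fit), 16 up (background 17.2%) and 34 down (background 13.8%), and all 27 were among them. On the same 8 libraries without the block 25 changed (background 9.94%). The block removes the offset of library 1. Libraries 2 to 4 of each WT-labelled group differed little from one another (chi-square per gene 1.52 to 2.12). Standard errors and p-values with the block, here and below, therefore cover little more than the spread among near-alike libraries. P-values without the block, the exact ones below among them, also count the near-alike libraries of a set as separate. Library measures moved with T3 as well. Genes with at least 1 count numbered 33850 to 36430 in the untreated and 27566 to 33408 in the treated WT-labelled libraries, and reads assigned to no gene feature made up 16.7 to 17.6% and 12.5 to 14.7% of the totals, neither overlapping. Under the RXRgKO label the ranges were 35478 to 41671 and 33098 to 38116 genes and 18.1 to 23.5% and 11.5 to 18.7%, which overlapped. The part of these measures in the results was not tested. Marker levels of cell types were read beside these comparisons. The 7 precursor markers summed to 3536 to 5058 and 2863 to 4240 CPM without and with T3 under WT. Under RXRgKO they summed to 2419 to 4596 and 1968 to 3899 CPM. The libraries lacking Xist held the lower values, 2419 to 2658 and 1968 to 2025 CPM. These groups overlapped in all 4 comparisons, and no precursor marker was called. The 8 markers of myelinating oligodendrocytes summed to 13087 to 17670 CPM in the untreated and 19417 to 29676 CPM in the T3-treated WT-labelled libraries, and to 1686 to 2289 and 3150 to 5125 CPM in the RXRgKO-labelled ones, with no overlap in any of the 4 comparisons (each exact p = 0.0286, the smallest that 4 against 4 allows). Of the 13 neuronal markers 5 fell with T3 under the WT label, and 7 were higher and 1 lower under the RXRgKO label with T3, while their sums overlapped (exact p = 0.4 and 0.314). Astrocyte markers summed to 8754 CPM and 15687 CPM in WT-labelled library 1 without and with T3, above every other library of either label. The sums of microglial, endothelial, mural and ependymal markers were higher under the RXRgKO label, with no overlap between the groups. The endothelial markers Cldn5, Cdh5 and Tek, the mural marker Des and the ependymal marker Tmem212 stayed under 1 CPM in every group. The part of these cells in the channel genes' changes was not tested.

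Of the 30 voltage-gated potassium channel pore genes with at least 1 CPM, 4 rose and 4 fell with T3 under the WT label. The backgrounds were 6.01% and 3.91%. Under the RXRgKO label 3 rose (background 2.48%) and 2 fell (background 0.934%). The risers were led by 2 of the 3 Shaker genes that lie side by side on chromosome 6. Kcna1, the subunit known from the membrane beside the nodes of myelinated axons, was at 2.80, 2.45, 2.61 and 3.22 CPM in the untreated WT-labelled libraries 1 to 4 and at 57.0, 42.1, 40.8 and 37.6 CPM with T3. In the RXRgKO-labelled libraries it was at 1.95, 1.46, 2.26 and 1.25 CPM without and at 11.3, 10.7, 11.3 and 11 CPM with T3. Every treated library lay above every untreated one, and the treated RXRgKO-labelled libraries lay below all treated WT-labelled ones. The log2 change with T3 was 4.00 ± 0.18 (SE, adjusted p = 3.1e-09) under the WT label and 2.68 ± 0.18 (adjusted p = 4.1e-07) under the RXRgKO label. Between labels Kcna1 was lower under RXRgKO by a log2 change of -2.0 ± 0.16 with T3 (adjusted p = 7.2e-07). The untreated difference of -0.69 ± 0.19 (adjusted p = 0.0219) was lost without WT untreated library 4 (0.0723) or RXRgKO untreated library 2 (0.067) or 4 (0.076), and its adjusted p ranged from 0.00375 to 0.13 over the alternatives.

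Kcna5, a delayed rectifier subunit known from dividing OPCs, lies 104984 bases from Kcna1 on the same strand. Its level was 0.488 to 0.827 CPM without and 2.62 to 4.18 CPM with T3 under the WT label. Under the RXRgKO label it was 0.894 to 2.0 CPM without T3, and 3.29 and 3.74 CPM in the 2 treated libraries lacking Xist and 7.05 and 8.0 CPM in the 2 with it. The treated groups lay above the untreated ones under both labels, with log2 changes of 2.29 ± 0.33 (adjusted p = 0.00034) and 2.04 ± 0.30 (adjusted p = 0.00093). Kcna6, the third gene of the cluster, had changes of 0.45 ± 0.19 and 0.70 ± 0.19, neither of which passed the test (adjusted p = 0.177 and 0.0668), and the first passed with the replicate block (0.00214). Without T3 it was lower under the RXRgKO label, at 49.1 to 59.5 against 73.4 to 104 CPM with no overlap (log2 -0.67 ± 0.19, adjusted p = 0.0312), a call lost on leaving out any of 7 single libraries, with adjusted p up to 0.126. Of its merged exon length 39.6% overlaps an antisense gene, and the strand setting of the counting is not given.

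Kcna2, the partner of Kcna1 beside nodes, was lower under the RXRgKO label at both treatments. It was at 256, 175, 176 and 182 CPM in the untreated and 236, 305, 277 and 231 CPM in the treated WT-labelled libraries. The RXRgKO-labelled libraries were at 88.1, 102, 75.1 and 107 CPM untreated and 64.0, 74.0, 119 and 121 CPM treated. No RXRgKO-labelled library reached the lowest WT-labelled one. The label difference was -1.09 ± 0.21 without T3 (adjusted p = 0.0020) and -1.47 ± 0.21 with T3 (adjusted p = 0.00013), and both held under every alternative run. Its T3 change of 0.41 ± 0.21 under the WT label did not pass (adjusted p = 0.26), and passed with the block (0.0357). Kcna3, known with Kcna5 from dividing OPCs, was at group means of 5.04, 4.62, 4.66 and 4.80 CPM and passed no test. Kcna4 was higher under the RXRgKO label with T3, at 3.02 ± 0.338 against 1.75 ± 0.432 CPM (SD, n = 4; log2 0.78 ± 0.20, adjusted p = 0.0115), a call lost with no low-count filter and with the RXRgKO-labelled libraries lacking Xist alone (0.061 and 0.0598).

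**Figure D3:**
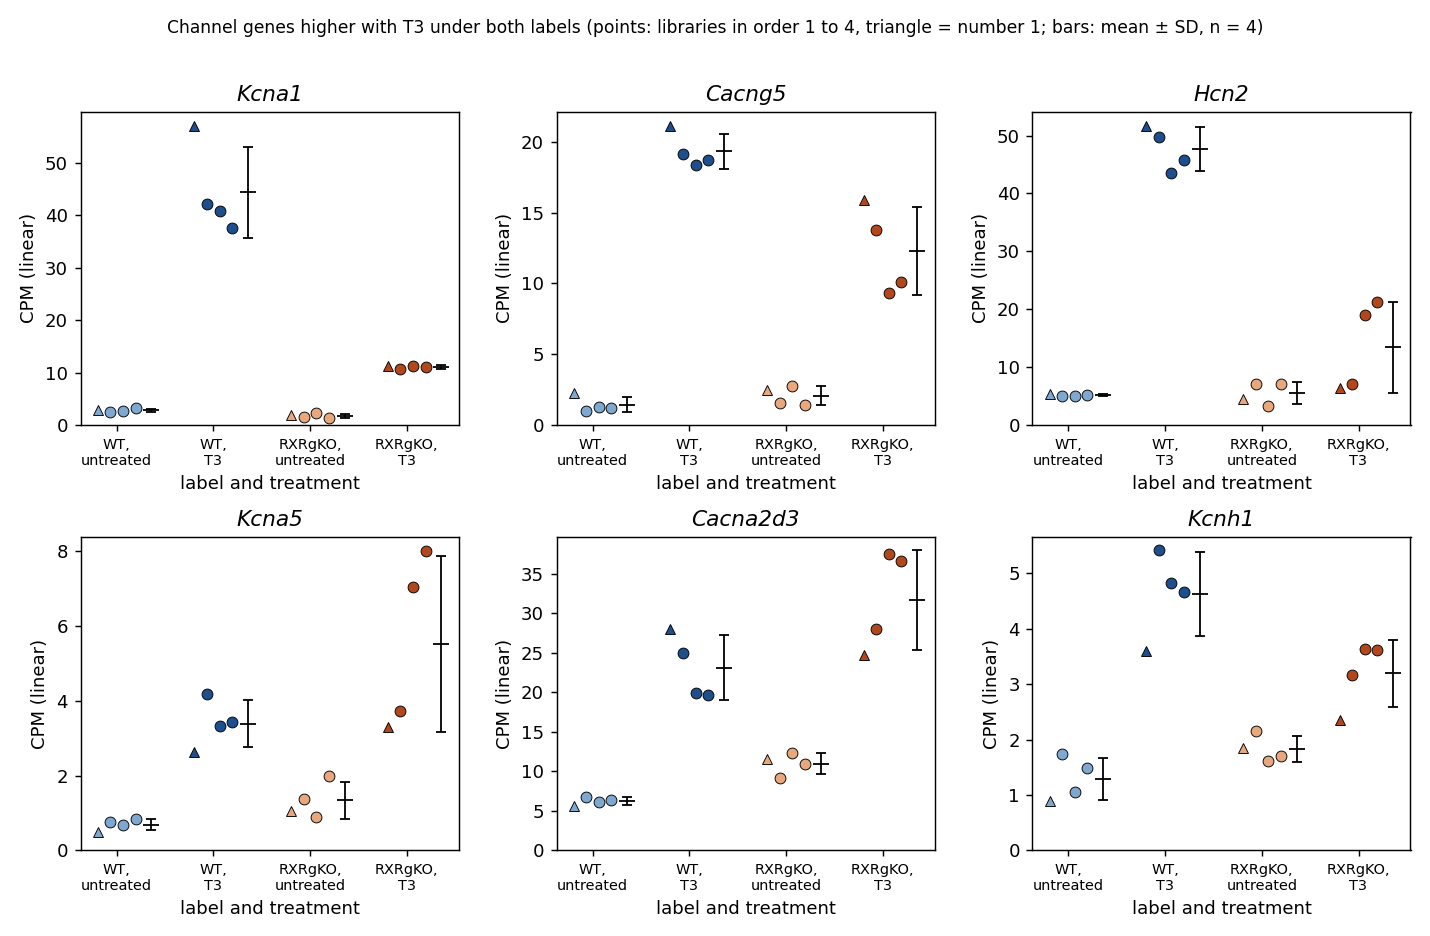
CPM of the 6 channel genes that rose with T3 under both labels, 1 point per library and the mean ± SD of 4 libraries per group. Treated libraries lie above untreated ones except for Hcn2 under the RXRgKO label, where libraries 1 and 2 with T3 (6.42 and 7.0 CPM) lie among the untreated ones.

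Kcnh1, an ether-a-go-go channel known from proliferating cells, was at 0.894 to 1.73 CPM without and 3.60 to 5.43 CPM with T3 under the WT label, and at 1.62 to 2.16 and 2.36 to 3.64 CPM under the RXRgKO label. Neither pair of groups overlapped. The log2 change was 1.84 ± 0.22 (adjusted p = 5.7e-05) and 0.81 ± 0.21 (adjusted p = 0.0491), and the second call was lost on leaving out any of 12 single libraries, with adjusted p up to 0.667 over the alternatives. The related Kcnh3 and Kcnh4 moved the other way. Kcnh4 fell from 0.772 to 1.1 CPM to 0.126 to 0.412 CPM with T3 under the WT label, with no overlap (-1.79 ± 0.36, adjusted p = 0.0045). Kcnh3 fell from 1.02 to 1.65 CPM to 0.469 to 0.720 CPM, also with no overlap (-1.15 ± 0.27, adjusted p = 0.0133), and its call was lost without WT untreated library 2 (0.0531). With T3 both were higher under the RXRgKO label, by 1.49 ± 0.27 for Kcnh3 and 1.59 ± 0.36 for Kcnh4 (adjusted p = 0.00095 and 0.0055).

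Kcnc2, a fast delayed rectifier subunit, fell with T3 under both labels. The WT-labelled libraries went from 1.95, 3.63, 4.46 and 3.35 CPM to 1.45, 1.34, 1.45 and 1.03 CPM, and the RXRgKO-labelled ones from 5.72, 3.70, 5.28 and 3.91 CPM to 2.86, 2.84, 2.19 and 1.77 CPM. Treated libraries lay below all untreated ones under each label. The log2 changes were -1.34 ± 0.25 (adjusted p = 0.0029) and -0.96 ± 0.24 (adjusted p = 0.0395), the second being lost on leaving out any of 9 single libraries, with adjusted p up to 0.395. Kcnc4, of the same subfamily, fell under the WT label from 1.38 ± 0.534 to 0.510 ± 0.281 CPM (-1.41 ± 0.37, adjusted p = 0.0232), and this call was lost without WT untreated library 1 (0.0532) or 2 (0.0875) or WT T3 library 3 (0.0808) or 4 (0.0825).

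Kcnq3, a subunit of the M-current channel, was lower under the RXRgKO label at both treatments. The WT-labelled libraries had 20.6, 27.6, 27.3 and 28.7 CPM of it without T3 and 22.1, 35.1, 27.8 and 25.1 CPM with T3, against 13.8, 15.3, 16.6 and 17.3 CPM and 10.1, 9.32, 10.0 and 9.85 CPM under RXRgKO. The labels did not overlap, and the treated RXRgKO-labelled libraries were the lowest. The label differences of -0.73 ± 0.14 (adjusted p = 0.0026) and -1.49 ± 0.15 (adjusted p = 4.0e-06) held under every alternative run. T3 lowered Kcnq3 by -0.68 ± 0.15 under the RXRgKO label (adjusted p = 0.0160), a call lost without RXRgKO untreated library 4 (0.0668), with no low-count filter and within each Xist set alone (up to 0.464), and the change under the WT label was 0.08 ± 0.14 (adjusted p = 0.80).

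Of the silent subunits, which form no channel alone, Kcns2 was higher under the RXRgKO label at both treatments. It was at 0.325 to 1.27 CPM and 0.411 to 0.783 CPM in the WT-labelled groups without and with T3, against 2.73 to 3.87 CPM and 1.87 to 3.95 CPM. The labels did not overlap, and the differences of 1.79 ± 0.35 (adjusted p = 0.0023) and 2.27 ± 0.37 (adjusted p = 0.00046) held under every alternative run. Kcns3 was at 0.0842 to 0.422 CPM in the untreated WT-labelled group and 0.687 to 1.30 CPM in the untreated RXRgKO-labelled one (1.80 ± 0.46, adjusted p = 0.0146), a call lost with limma voom and with the libraries with Xist alone (0.0715 and 0.0554). Kcns3 rose with T3 under the WT label, to 0.720 to 1.58 CPM (2.03 ± 0.45, adjusted p = 0.0093). The treated RXRgKO-labelled libraries were at 4.18 and 3.37 CPM without Xist and 1.40 and 1.80 CPM with it, overlapping the WT-labelled ones, and the label difference with T3 (1.17 ± 0.37, adjusted p = 0.0413) was lost on leaving out any of 7 single libraries. Kcnf1 was higher under RXRgKO with T3, at 6.33 ± 1.64 against 3.52 ± 0.474 CPM (0.86 ± 0.21, adjusted p = 0.0084), a call lost with the libraries lacking Xist alone (0.184).

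The A-type pore genes Kcnd2 and Kcnd3 passed no test between groups of 4. Under the RXRgKO label without T3 Kcnd2 was at 48.6 and 42.3 CPM in the libraries lacking Xist and 126 and 119 CPM in the others, and with T3 at 28.6 and 29.7 against 93.7 and 94.9 CPM. Under the WT label it went from 97.6 to 122 CPM to 65.7 to 91.4 CPM with no overlap, a log2 change of -0.51 ± 0.40 (adjusted p = 0.49). The same change with the replicate block was -0.53 ± 0.07 (adjusted p = 0.00038), with the limit on the block's spread given above. Within the 2 RXRgKO-labelled sets the ratio with T3 was -0.64 and -0.38 on the log2 scale.

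Of the 11 auxiliary subunits of these channels, none rose with T3 under either label (background 6.01% and 2.48%). Under the WT label 2 fell (background 3.91%) and under the RXRgKO label 1 (background 0.934%). Kcne1l went from 38.9, 51.6, 52.6 and 59.9 CPM to 34.8, 31.1, 31.1 and 32.9 CPM under the WT label and from 43.5, 42.4, 41.2 and 41.7 CPM to 26.1, 26.0, 31.8 and 34.7 CPM under RXRgKO. No treated library reached the untreated ones. The log2 changes were -0.64 ± 0.13 (adjusted p = 0.0053) and -0.51 ± 0.13 (adjusted p = 0.0484), the second being lost on leaving out any of 13 single libraries. Kcnip1, which brings A-type channels to the surface, fell under the WT label from 5.20 to 8.89 CPM to 2.75 to 3.92 CPM with no overlap (-1.17 ± 0.24, adjusted p = 0.0048), and with T3 it was higher under RXRgKO (0.92 ± 0.23, adjusted p = 0.0125), a call lost without RXRgKO T3 library 4 (0.0596) and with the libraries lacking Xist alone (0.157). Kcnip2 of the same family was lower under RXRgKO without T3, at 4.94 to 6.59 against 12.6 to 16.8 CPM with no overlap (-1.35 ± 0.30, adjusted p = 0.0061), and this held under every alternative run. Kcnip3 passed no test. Kcnrg, a soluble inhibitor of channel assembly, was lower under RXRgKO without T3 at 1.40 ± 0.146 against 2.08 ± 0.331 CPM (-0.57 ± 0.17, adjusted p = 0.0448), a call lost on leaving out any of 13 single libraries, with adjusted p up to 0.228.

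Of the 10 inward rectifiers, 3 rose (background 6.01%) and 1 fell (background 3.91%) with T3 under the WT label. None passed the test under the RXRgKO label (background 3.41%). Kcnj10 clears potassium in astrocytes and oligodendrocytes. The untreated WT-labelled libraries had 99.4, 59.4, 62.9 and 58.5 CPM of it, and the treated ones 219, 113, 101 and 101 CPM. In the RXRgKO-labelled ones it was at 81.4, 97.2, 84.6 and 98.5 CPM and then at 124, 114, 139 and 129 CPM. Treated libraries lay above untreated ones under both labels, and WT-labelled library 1 was the highest of its group each time. The log2 change was 0.93 ± 0.23 (adjusted p = 0.0181) under WT and 0.48 ± 0.23 (adjusted p = 0.32) under RXRgKO. Without WT T3 library 1 the first was 0.56 (adjusted p = 0.0621), and without WT untreated library 2, 3 or 4 its adjusted p was 0.0775, 0.0873 and 0.0793. Kcnj16, its partner subunit, was higher under RXRgKO without T3, at 8.01 to 11.1 against 3.22 to 4.35 CPM with no overlap (1.32 ± 0.27, adjusted p = 0.0031), and this held under every alternative run.

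The strong rectifiers were split by label with T3. Kcnj12 went from 3.05, 1.94, 1.60 and 1.96 CPM to 13.3, 8.88, 10.0 and 7.30 CPM with T3 under the WT label, with no overlap (2.21 ± 0.39, adjusted p = 0.0019). Under RXRgKO it was at 1.27 to 1.91 CPM without T3 and at 1.01 and 1.11 CPM in the treated libraries lacking Xist and 3.93 and 4.51 CPM in those with it, and the change of 0.87 ± 0.40 did not pass (adjusted p = 0.30). Within the sets the log2 ratio was -0.29 without and 1.34 with Xist. With T3 Kcnj12 was lower under RXRgKO by -1.86 ± 0.38 (adjusted p = 0.0028). Kcnj2 was at 3.74, 16.2, 16.9 and 15.3 CPM and then 9.32, 27.0, 25.8 and 25.4 CPM in the WT-labelled libraries, so that library 1 lay far below the others, and at 4.36 to 6.34 and 4.68 to 6.73 CPM under RXRgKO. Its T3 change under WT of 0.74 did not pass (adjusted p = 0.25) and with the replicate block was 0.81 ± 0.12 (adjusted p = 0.00070). The label difference was -1.37 ± 0.38 without T3 (adjusted p = 0.0252), a call lost on leaving out any of 6 single libraries, and -1.90 ± 0.38 with T3 (adjusted p = 0.0024), which held under every alternative run. Kcnj4 rose with T3 under WT from 2.08 ± 0.281 to 3.36 ± 0.820 CPM (0.69 ± 0.18, adjusted p = 0.0256) and with T3 it was lower under RXRgKO, at 2.19 ± 0.0579 CPM (-0.61 ± 0.18, adjusted p = 0.0294). These calls for Kcnj4 were lost on leaving out any of 5 and 7 single libraries.

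The G protein-gated subunit Kcnj9 lies 11891 bases from Kcnj10 on chromosome 1, on the opposite strand, and did not follow it. The untreated WT-labelled libraries had 3.82, 4.10, 3.92 and 4.05 CPM of it and the treated ones 3.33 to 4.33 CPM, against 1.78, 1.96, 2.13 and 2.18 CPM and 1.26 to 2.68 CPM under RXRgKO. The labels did not overlap, and the differences were -0.98 ± 0.19 (adjusted p = 0.0018) and -0.78 ± 0.18 (adjusted p = 0.0072). Kcnj3, a subunit of the same class, passed no test between groups of 4, and fell under WT with the replicate block (-0.34 ± 0.11, adjusted p = 0.0389). Kcnj11, the pore of the channel closed by ATP, fell with T3 under the WT label from 1.38 to 2.09 CPM to 0.576 to 1.24 CPM with no overlap (-1.03 ± 0.25, adjusted p = 0.0158), a call lost without WT untreated library 2 (0.0542) or 4 (0.0585) or WT T3 library 2 (0.0543).

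The 7 background (K2P) potassium channel genes set the resting potential. With T3 under the WT label none rose (share over all genes 6.01%) and 2 fell (share over all genes 3.91%). None changed under the RXRgKO label (share over all genes 3.41%). Kcnk2, a mechanosensitive member, went from 62.7, 74.1, 81.8 and 81.4 CPM to 46.4, 40.2, 41.6 and 42.5 CPM under WT, and from 46.2, 59.7, 46.1 and 58.7 CPM to 37.4, 35.8, 47.1 and 47.6 CPM under RXRgKO. The WT-labelled groups did not overlap and the RXRgKO-labelled ones did. The log2 changes were -0.81 ± 0.14 (adjusted p = 0.0012) and -0.33 ± 0.14 (adjusted p = 0.24). Untreated Kcnk2 was lower under RXRgKO (-0.51 ± 0.14, adjusted p = 0.0203), a call lost on leaving out any of 4 single libraries.

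Of the acid-sensitive members, Kcnk9 was higher under the RXRgKO label at both treatments and Kcnk3 with T3. Kcnk3 fell with T3 under WT from 0.927 to 2.40 CPM to 0.432 to 0.790 CPM with no overlap (-1.44 ± 0.30, adjusted p = 0.0062) and was at 1.39 to 2.44 CPM with T3 under RXRgKO, above every treated WT-labelled library (1.71 ± 0.30, adjusted p = 0.00075). Kcnk9 was at 1.67 to 2.48 and 1.19 to 1.54 CPM in the WT-labelled groups and 3.47 to 4.69 and 3.02 to 5.11 CPM in the RXRgKO-labelled ones, with no overlap. Its label differences of 0.93 ± 0.19 (adjusted p = 0.0029) and 1.47 ± 0.19 (adjusted p = 6.4e-05) held under every alternative run, and it fell with T3 under WT with the replicate block (-0.63 ± 0.20, adjusted p = 0.0363). Kcnk1, a weakly conducting member of astrocytes, was higher under RXRgKO with T3, at 8.92 to 11.1 against 3.75 to 7.24 CPM with no overlap (1.01 ± 0.20, adjusted p = 0.0019). Kcnk10, a relative of Kcnk2, passed no test.

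**Figure D4:**
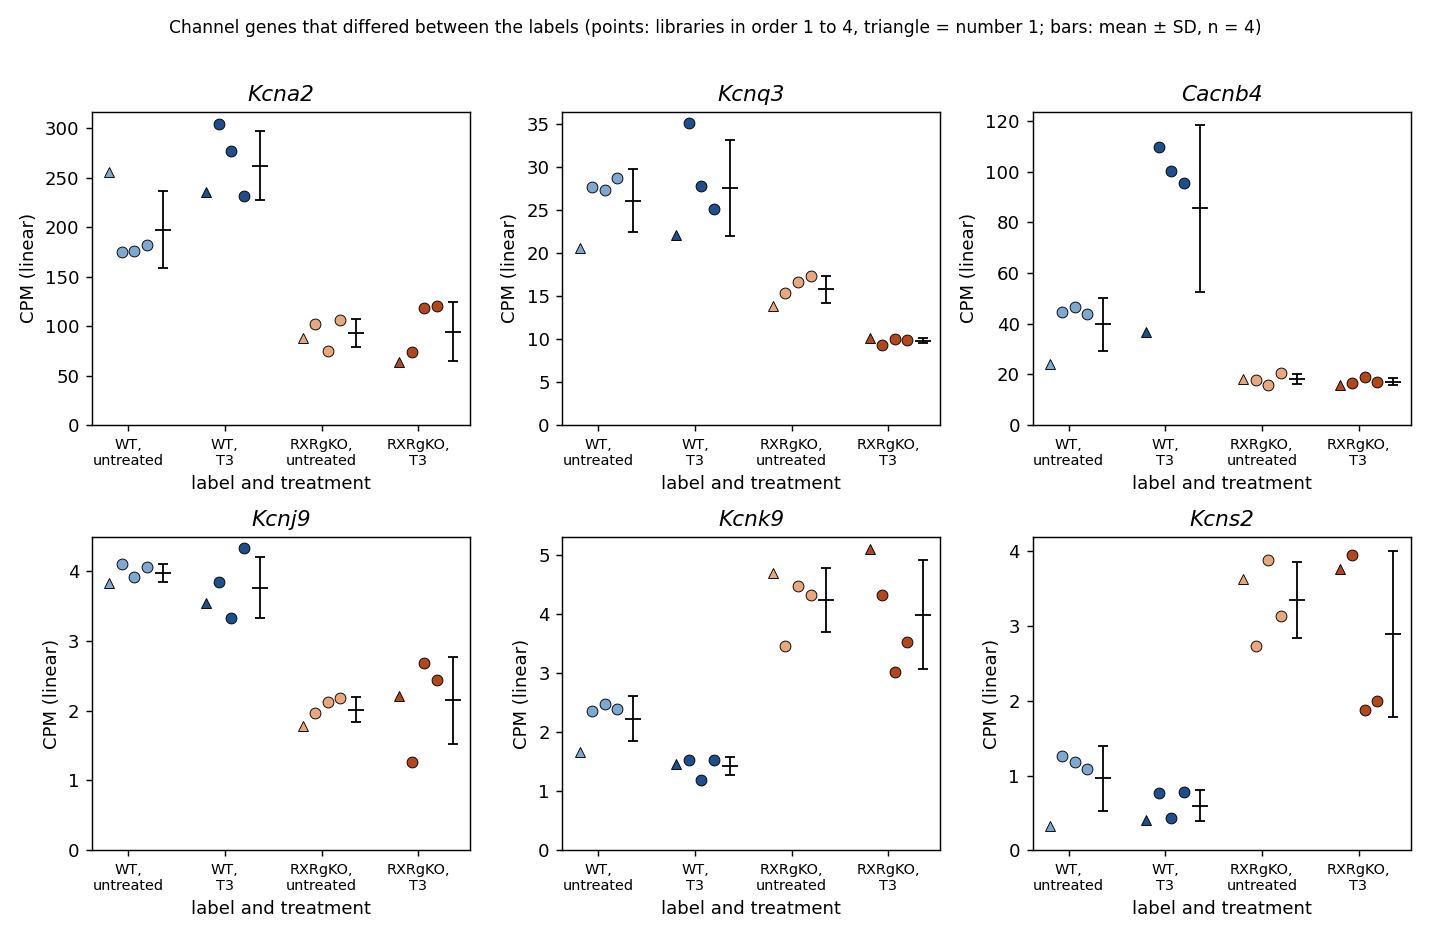
CPM of 6 channel genes that differed between the labels both without and with T3, 1 point per library and the mean ± SD of 4 libraries per group. Kcna2, Kcnq3, Cacnb4 and Kcnj9 are lower and Kcnk9 and Kcns2 higher in all RXRgKO-labelled libraries, and library 1 (triangle) is the lowest WT-labelled library for Cacnb4.

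Of the 9 calcium- or sodium-activated potassium channel genes none rose (background 6.01%) and 2 fell (background 3.91%) with T3 under the WT label. Both that fell are small-conductance channels. Kcnn1 went from 11.1, 7.77, 8.13 and 8.58 CPM to 5.75, 4.66, 4.44 and 4.74 CPM (-0.86 ± 0.15, adjusted p = 0.0015). Kcnn3 went from 28.0, 25.5, 27.0 and 28.0 CPM to 20.4, 15.8, 15.4 and 13.2 CPM (-0.74 ± 0.16, adjusted p = 0.0080). Neither pair of groups overlapped. Under the RXRgKO label the changes were -0.31 ± 0.14 and -0.60 ± 0.16 (adjusted p = 0.30 and 0.0551), and Kcnn3 again did not overlap, at 23.2 to 36.4 and 17.1 to 23.0 CPM. Kcnn1 was higher under RXRgKO with T3 (0.47 ± 0.15, adjusted p = 0.0412), a call lost on leaving out any of 13 single libraries. Kcnmb4 passed no test.

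Sodium channel genes moved down with T3 under the WT label where they passed the test. These were 2 of 7 pore genes and 2 of 3 beta subunits (background 3.91%). No pore or beta gene changed with T3 under the RXRgKO label (background 3.41%). Scn1a, a main neuronal pore, went from 5.53, 6.80, 7.24 and 8.10 CPM to 2.21, 3.99, 3.07 and 3.71 CPM under WT, and was at 6.47 to 7.67 and 4.60 to 6.23 CPM under RXRgKO. The treated libraries lay below the untreated ones under both labels. The log2 changes were -1.10 ± 0.18 (adjusted p = 0.00088) and -0.40 ± 0.17 (adjusted p = 0.27). Scn9a, next to it on chromosome 2, fell under WT from 0.569 to 1.22 CPM to 0.253 to 0.528 CPM with no overlap (-1.19 ± 0.30, adjusted p = 0.0212), a call lost without WT untreated library 2 (0.071) or 4 (0.0725). Scn3b, a beta subunit, fell from 15.5, 21.7, 24.1 and 22.0 CPM to 14.2, 15, 13 and 12 CPM under WT (-0.62 ± 0.13, adjusted p = 0.0054) and was at 19.3 to 20.7 and 19.7 to 22.3 CPM under RXRgKO. Scn2b fell under WT from 3.88 ± 0.303 to 2.38 ± 0.336 CPM (-0.70 ± 0.19, adjusted p = 0.0276), a call lost on leaving out any of 6 single libraries.

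With T3, 5 of the 7 sodium channel pores were higher under the RXRgKO label (background 9.1%) and none lower (background 8.12%). Without T3, 2 were higher (background 7.03%). Other families held calls between the labels with T3 too, beside the same 9.1% and 8.12%. Of 30 voltage-gated potassium pores 8 were higher and 3 lower, and of 7 K2P genes 3 were higher and none lower. Of 4 HCN genes 2 were higher and 1 lower, and of 10 inward rectifiers none was higher and 4 were lower. Scn7a, a sodium-sensing channel of glia, was at 1.30 ± 0.341 and 1.57 ± 0.468 CPM under WT. Under RXRgKO it was at 2.06 and 3.02 CPM in the untreated libraries lacking Xist and 6.05 and 6.78 CPM in the others, and at 1.93 and 2.32 against 6.66 and 7.41 CPM with T3, where the library at 1.93 CPM lay within the WT-labelled range. Its label differences were 1.78 ± 0.46 (adjusted p = 0.0155) and 1.55 ± 0.45 (adjusted p = 0.0260), lost on leaving out any of 4 and 5 single libraries. Scn9a was higher by 1.16 ± 0.30 (adjusted p = 0.0145), Scn1a by 0.73 ± 0.18 (adjusted p = 0.0097) and Scn2a by 0.63 ± 0.17 (adjusted p = 0.0209) with T3, at 24.0 ± 2.59 against 15.5 ± 1.91 CPM for Scn2a. The call for Scn2a was lost without WT T3 library 4 (0.0531) or RXRgKO T3 library 2 (0.0533) and with no low-count filter (0.0823), and that for Scn1a on the 8 treated libraries alone (0.0503). With the RXRgKO-labelled libraries with Xist alone all 3 of these calls were lost (adjusted p = 0.0912 for Scn9a, 0.129 for Scn1a and 0.224 for Scn2a). Scn3a and Scn8a passed no test between groups of 4, and Scn3a fell under WT with the replicate block (-0.51 ± 0.09, adjusted p = 0.0018).

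Of the 9 calcium channel pores, the T-type gene Cacna1g alone changed with T3 between groups of 4. It fell under both labels (background 3.91% under WT and 0.934% under RXRgKO). It was at 5.65, 6.72, 6.82 and 6.18 CPM and then 3.07, 4.47, 3.16 and 3.46 CPM under WT, and at 8.08, 11, 7.88 and 11.2 CPM and then 5.65, 4.84, 6.76 and 6.18 CPM under RXRgKO. Treated libraries lay below untreated ones under each label, and the RXRgKO-labelled libraries lay above the WT-labelled ones at both treatments. The T3 changes were -0.85 ± 0.17 (adjusted p = 0.0043) and -0.70 ± 0.16 (adjusted p = 0.0282), and the label differences 0.59 ± 0.16 (adjusted p = 0.0250) and 0.74 ± 0.17 (adjusted p = 0.0060). The T3 call under RXRgKO was lost on leaving out any of 5 single libraries and the untreated label call on leaving out any of 6. The label call with T3 was lost with the libraries lacking Xist alone and with the replicate block on the 8 libraries compared (adjusted p up to 0.0796). Cacna1h, the other T-type gene named here, went from 52.9 to 59.5 CPM to 36.2 to 40.1 CPM with T3 under WT with no overlap, a change of -0.59 ± 0.24 that did not pass (adjusted p = 0.15) and passed with the replicate block (adjusted p = 0.00037). The L-type genes Cacna1c and Cacna1d and the P/Q-type Cacna1a passed no test between groups of 4, and Cacna1c fell under WT with the block (-0.51 ± 0.11, adjusted p = 0.0052). Cacna1i, the remaining T-type gene, also fell with the block (-0.69 ± 0.14, adjusted p = 0.0053) and is named after its values were seen. With the block 4 of the 9 pores fell (background 13.8% under the same fit), Cacna1g among them.

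Among the auxiliary subunits of calcium channels and their relatives, Cacna2d3, Cacnb4 and Cacng5 rose with T3 under the WT label. Cacna2d3, an alpha2delta subunit, which brings pores to the surface, was at 5.57, 6.80, 6.15 and 6.36 CPM and then 27.9, 25.0, 19.9 and 19.6 CPM under WT, and at 11.5, 9.17, 12.3 and 10.9 CPM and then 24.7, 28.1, 37.5 and 36.5 CPM under RXRgKO. Treated libraries lay above all untreated ones, and without T3 the RXRgKO-labelled libraries lay above the WT-labelled ones. The T3 changes were 1.89 ± 0.17 (adjusted p = 2.3e-06) and 1.53 ± 0.16 (adjusted p = 2.8e-05) and the untreated label difference 0.82 ± 0.16 (adjusted p = 0.0027), and all 3 held under every alternative run. Cacna2d1 passed no test. Cacnb4, a beta subunit, rose with T3 under WT from 24.2, 44.6, 46.6 and 43.9 CPM to 36.8, 110, 100 and 95.6 CPM (1.10 ± 0.26, adjusted p = 0.0143, and 0.0793 with the 8 WT-labelled libraries alone), where treated library 1 lay among the untreated ones. Under RXRgKO it stayed at 16.0 to 20.7 and 16.0 to 18.9 CPM, below every WT-labelled library. The label differences were -1.13 ± 0.27 (adjusted p = 0.0088) and -2.32 ± 0.27 (adjusted p = 2.3e-05). The first call was lost with the RXRgKO-labelled libraries with Xist alone (0.115), and the second held under every alternative run. Cacnb2 was higher under RXRgKO without T3 (0.53 ± 0.16, adjusted p = 0.0437), a call lost on leaving out any of 13 single libraries, and Cacnb3 passed no test.

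Cacng5, which belongs to the proteins that modulate AMPA-type glutamate receptors, was at 2.24, 1.01, 1.26 and 1.22 CPM and then 21.1, 19.1, 18.4 and 18.7 CPM under WT. Under RXRgKO it was at 2.5, 1.58, 2.77 and 1.40 CPM and then 15.9, 13.7, 9.31 and 10.1 CPM. Treated libraries lay above all untreated ones, and the treated RXRgKO-labelled libraries lay below the treated WT-labelled ones. The T3 changes were 3.75 ± 0.27 (adjusted p = 4.5e-07) and 2.57 ± 0.26 (adjusted p = 1.7e-05), and both held under every alternative run. The label difference with T3, -0.66 ± 0.23, did not pass (adjusted p = 0.0665). Its neighbour Cacng4, 80047 bases away on the same strand of chromosome 11, was far more abundant at 40.3 to 57.0 and 52.8 to 101 CPM under WT with a T3 change of 0.56 ± 0.28 (adjusted p = 0.25), which passed with the replicate block (0.52 ± 0.10, adjusted p = 0.0039). Cacng2, of the same class, was higher under RXRgKO with T3 at 4.18 to 6.89 against 0.917 to 2.56 CPM with no overlap (1.64 ± 0.37, adjusted p = 0.0061), a call lost with the libraries lacking Xist alone (0.0703). It fell with T3 under WT with the replicate block (-1.11 ± 0.19, adjusted p = 0.0020). Cacng7 passed no test.

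Hcn2, a channel opened by hyperpolarisation and cyclic AMP, rose with T3 under both labels, under RXRgKO in one of the library sets more than in the other. It was at 5.33, 5.07, 5.05 and 5.27 CPM and then 51.7, 49.8, 43.5 and 45.7 CPM under WT. Under RXRgKO it was at 4.49, 7.13, 3.32 and 7.16 CPM and then 6.42, 7.0, 19.0 and 21.3 CPM. The treated RXRgKO-labelled libraries lacking Xist were within the untreated range and those with Xist above it, and all 4 lay below the treated WT-labelled ones. The T3 change was 3.20 ± 0.35 under WT (adjusted p = 2.7e-05), which held under every alternative run, and 1.29 ± 0.33 under RXRgKO (adjusted p = 0.0475), which was lost on leaving out any of 14 single libraries. Within the sets lacking and with Xist the log2 ratio was 0.78 and 1.5. The label difference with T3 was -1.82 ± 0.33 (adjusted p = 0.0010). Hcn3 passed no test between groups of 4 and fell with T3 under WT with the replicate block (-0.50 ± 0.11, adjusted p = 0.0083). Nalcn, the sodium leak channel, was at 57.0 to 73.9 CPM in all WT-labelled libraries. Under RXRgKO it was at 75.6 to 109 CPM without and 65.8 to 110 CPM with T3, the libraries with Xist being the higher ones each time. Its label difference with T3 (0.57 ± 0.18, adjusted p = 0.0408) was lost on leaving out any of 13 single libraries.

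The response to T3 was then compared between labels by the interaction term. An unadjusted edgeR p under 0.05 was reached by 21 of the 104 genes, and by 1017 of all 19764 genes tested. The latter include genes under 1 CPM in every group, which the 104 do not, so these counts are not on a like base. After adjustment no channel gene passed (edgeR, 0 of 104, background 0.0815%). DESeq2 called 2 (background 0.483%) and limma voom 0 (background 0.069%). The genes past the threshold under WT and not under RXRgKO are therefore not shown to respond differently. Kcna1 came nearest, with a difference of -1.31 ± 0.25 (adjusted p = 0.0621), and was called in 6 of the 25 alternatives, where its adjusted p ranged from 0.0010 to 0.173. Hcn2 followed with -1.91 ± 0.47 (adjusted p = 0.22), called in 3 alternatives with a range of 0.00029 to 0.597. Scn3b, at 0.65 ± 0.18 (adjusted p = 0.297), was called in 1, and Cacnb4, at -1.18 ± 0.37 (adjusted p = 0.47), was called in 2. Leaving out WT T3 library 1 gave 2 called genes (background 0.307%), Kcna1 (adjusted p = 0.033) and Cacnb4 (0.0247). Of the 104 differences 74 were positive and 30 negative, with a median of 0.26 beside 0.03 over all genes of that level.

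**Figure D5:**
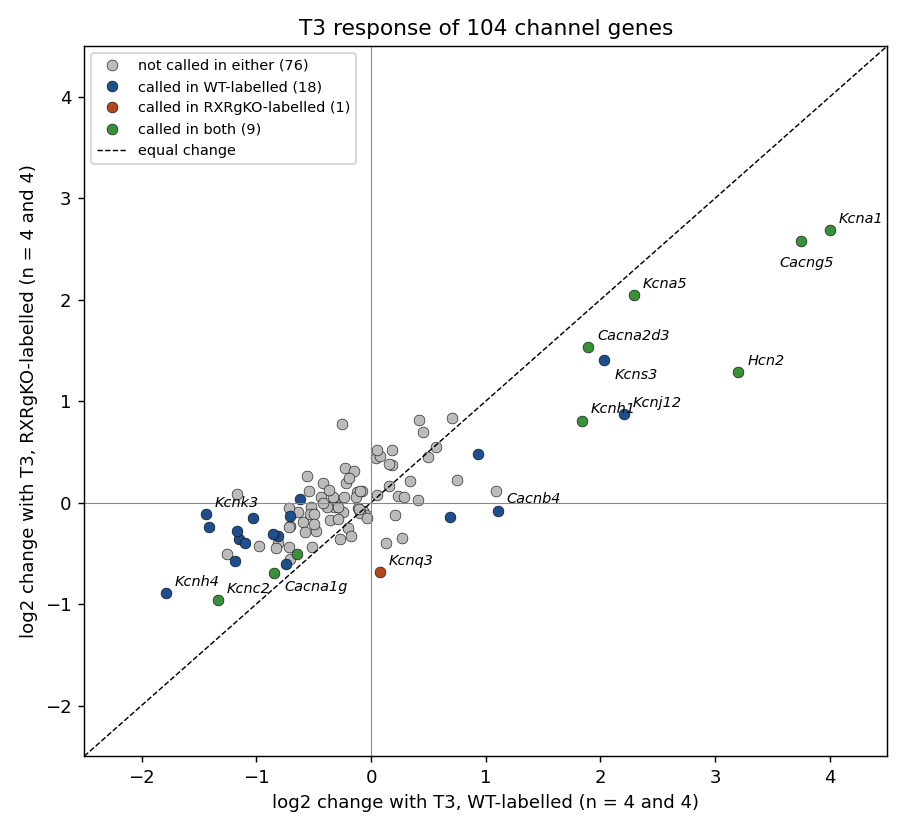
Log2 change with T3 of the 104 channel genes under the WT label (horizontal) and under the RXRgKO label (vertical), coloured by where the gene was called, with a dashed line of equal change. The 6 shared risers lie in the upper right below the line, and Kcnq3 is the gene called under RXRgKO alone.

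Partners of these channels were read from a list of 49 genes, of which 42 had at least 1 CPM. With T3, 5 rose (background 6.01%) and 10 fell (background 3.91%) under the WT label, and 4 rose (background 2.48%) and none fell (background 0.934%) under the RXRgKO label. The shared risers included the sodium pump beta subunits Atp1b2 (1.38 ± 0.26 and 1.38 ± 0.26) and Atp1b1 (0.88 ± 0.16 and 0.66 ± 0.16) and the sodium-potassium-chloride importer Slc12a2 (1.24 ± 0.20 and 1.01 ± 0.20). Those that fell under WT included the neuronal chloride exporter Slc12a5 (-0.86 ± 0.19) and the sodium channel partners Fgf11, Fgf12 and Fgf14. Between labels 2 were higher (background 7.03%) and 7 lower (background 6.29%) under RXRgKO without T3, and 10 higher (background 9.1%) and 6 lower (background 8.12%) with T3. The lower ones at both treatments included Nfasc, a cell adhesion protein of nodes and of myelinating cells (-2.5 ± 0.30 and -2.07 ± 0.29), Ank3, which anchors sodium channels (-1.13 ± 0.30 and -0.97 ± 0.30), and Pex5l, an auxiliary subunit of Hcn channels (-1.74 ± 0.21 and -2.24 ± 0.22).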

How the data were processed

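Libraries were made from poly(A)-selected RNA with a kit that marks strand, per the labels' protocols. Reads were demultiplexed with bcl2fastq 2.17.1.14, aligned with STAR 2.5.3a and counted with HTSeq 0.6.1p1 on mm10, per the submitters' processing notes. The strand setting of the counting was not given in the sources used here, nor was the annotation release. Each deposited file holds whole-number read counts per gene with no normalisation seen in the values. Rows that name no gene (no feature, ambiguous, not unique and the like) were left out; 22.4 to 46.7% of each file's total was in genes.

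Gene symbols, positions and merged exon lengths came from GENCODE M21 by gene identifier (55154 of 55335 matched). The 5 non-coding genes with a matching symbol were left out. The members and gene lists were chosen with earlier results of these data known. Counts were tested with edgeR 4.0.16 (R 4.3.3): TMM scaling, filterByExpr, robust quasi-likelihood fit of 4 groups over all 16 libraries, and Benjamini-Hochberg adjustment over 19764 genes, called at 0.05. Standard errors are the log2 change divided by the square root of F. CPM use TMM library sizes. DESeq2 1.42.0, limma 3.58.1 voom, other filters and size factors, libraries left out, library sets and a replicate block were alternatives. The script was tested on simulated data.

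Replicate numbers were taken to pair samples where every same-numbered pair's deviations correlated above 0.1. This held for T3 in the WT-labelled groups (0.648, 0.247, 0.211 and 0.164) and in no other comparison (from -0.697 to 0.6). Named genes are those called in any comparison with at least 1 CPM in a group (at most 15 per direction and comparison, by adjusted p), the 2 genes per family with the highest CPM per kilobase, and members known from OPCs, oligodendrocytes and astrocytes, 65 in all, of which 2 are not reported here. Promoters came from RefSeq (GRCm38.p6).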

Additional observations from a re-analysis of the deposited data

Results flagged for a closer look

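Of 304 groups of 4 values looked at (the named genes' CPM and the families' summed CPM), 23 held a library far from the other 3 (Dixon's test at 95%). Chance flags about 1 group in 20. Library 1 of a WT-labelled group was the distant one in 19 of the 23. In the untreated WT-labelled group library 1 was low for Cacnb4 (24.2 CPM), Kcnj2 (3.74 CPM) and Kcnk9 (1.67 CPM) and high for Kcna2 (256 CPM) and Kcnj10 (99.4 CPM). With T3 it was low for Kcnip2 (5.78 CPM), Kcnj2 (9.32 CPM) and Kcnk10 (33.2 CPM). It was high for Cacng7 (50.1 CPM), Kcna6 (159 CPM), Kcnj10 (219 CPM) and Kcnj16 (7.40 CPM).

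The summed levels of families followed. Untreated WT-labelled library 1 had 107 CPM of calcium channel beta subunits, below the others, and 117 CPM of calcium- or sodium-activated potassium channels and 134 CPM of inward rectifiers, above them. With T3 it had 179 CPM of the Cacng family, 100 CPM of calcium- or sodium-activated channels and 268 CPM of inward rectifiers, above the others, and 92.5 CPM of K2P channels, below them. The astrocyte markers of this library, 8754 CPM and 15687 CPM in sum without and with T3, were the highest of their groups, and their part in these values was not tested.

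The remaining 4 were in RXRgKO-labelled libraries. Cacna2d1 was at 57.8 CPM and Scn3b at 19.3 CPM in untreated library 3, Cacnb2 at 8.71 CPM in T3 library 1, and the sodium channel beta subunits summed to 29.1 CPM in T3 library 2.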

How the results depend on the processing

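No difference called for a named gene changed sign under the alternatives run for it. The count of called channel genes for T3 under the WT label was 27. It was 50 with the replicate block on the 8 libraries compared (background 31.1%) and 60 with a term for library set (background 39.7%). It was 25 on the 8 libraries alone (background 9.94%) and 28 with the block on all libraries (background 9.3%). With 1 library left out it was 20 to 33 (background 5.97 to 14.5%). For T3 under RXRgKO the count of 10 was 6 with no low-count filter (background 2.33%) and 5 on the 8 libraries alone (background 2.95%). It was 4 with the replicate block on them (background 0.89%) and 5 in the libraries lacking Xist (background 0.79%). With the set as a term it was 38 (background 42%). Of these 18 were higher (background 26.5%) and 20 lower (background 15.5%), in place of 6 and 4. With 1 library left out it was 4 to 12 (background 1.55 to 4.75%). With 1 library left out the label count without T3 was 10 to 21 (background 10.3 to 14.5%). With T3 it was 26 to 38 (background 12.6 to 19.1%). With the replicate block on the 8 libraries the counts were 12 without T3 (background 10.2%) and 18 with T3 (background 8.52%). That block ended the calls of Kcnj9 and Kcnj12 with T3 (adjusted p = 0.1 and 0.0572), which held otherwise. For the label without T3 the split of higher and lower genes was 9 and 10. It was 14 (background 7.27%) and 7 (background 6.16%) with the libraries with Xist alone. With those lacking it, it was 9 (background 8.51%) and 15 (background 16.3%). With T3 the split was 27 and 9, and 33 (background 9.8%) and 11 (background 8.69%) with Xist alone. In those lacking it 21 were higher (background 10.3%) and 18 lower (background 21%). Outside T3 under WT the rule for pairing was not met, and in no same-numbered pair did each library resemble the other most. For T3 under WT only the pair of number 1 did.

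For the response difference (0), DESeq2 called 2 genes (Kcna1 and Hcn2), size factors in edgeR 1, the 1 CPM filter 1, both WT-labelled libraries numbered 1 left out 3 (Kcna1, Cacnb4 and Scn3b), the RXRgKO-labelled libraries with Xist alone 1 (Hcn2), those lacking it 2 (Hcn2 and Kcna1), and 1 library left out 0 to 2. The background for the response difference was 0.0188 to 0.74% over these settings. The settings that kept 1 RXRgKO-labelled set for the label and response comparisons were chosen after seeing the data. For T3 under WT, having no low-count filter ended the calls of Kcne1l (adjusted p = 0.0866), Kcnj11 (0.0613), Kcnj4 (0.0838), Kcnn3 (0.0516), Scn2b (0.153), Scn3b (0.0867) and Scn9a (0.065), and limma voom that of Kcnh3 (0.0501). The cause of these changes was not tested. Of the named genes, 16 of 27, 4 of 10, 8 of 19 and 13 of 30 were called under every alternative run for T3 under WT, T3 under RXRgKO, the label without T3 and the label with T3. Genes under 1 CPM rest on few counts.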
